A study of Mus musculus with 10 samples.

Results

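*Asb4* encodes ankyrin repeat and SOCS box containing 4, an adaptor of a ubiquitin ligase. Its levels were described here in MIN6N8 mouse insulinoma cells, 5 libraries from cells given PBS as the vehicle and 5 from cells given mouse IL-22 at 100 ng/mL, each for 4 h in DMEM with 5.5 mM glucose. *Asb4* was chosen for its difference between these groups, from its counts and its counts scaled to the library total (CPM) in the same 10 libraries, so its values are a description and carry no test. It is 1 gene of the 230 that the deposited table holds, and each of the 230 has an FDR below 0.05 in the authors' own comparison of the same libraries. No genotype differed between the groups. The model is a single tumour-derived line with no other islet cells around it, and the labels do not say whether the 5 libraries of a group came from separate cultures, so p-values measure only the spread between these libraries. The labels give the dose used above, whereas the study's methods name a lower one. The study's supplementary legend for this experiment calls its samples independent and gives a number that differs from the 5 libraries per group here.

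Proteins with a SOCS box carry a second domain that binds a substrate, here a stack of ankyrin repeats, and hand that substrate to a ubiquitin ligase built on the scaffold cullin-5 with the elongin B and elongin C adaptors. The suppressors of cytokine signalling, such as *Socs3*, belong to the same superfamily and act in negative feedback on cytokine receptors. IL-22 signals through IL-22RA1 and IL-10RB to JAK kinases and STAT3. ASB4 has been described with the insulin receptor substrate IRS4 and with the transcription regulator ID2 as its substrates, and it is best known from hypothalamic neurons and from the developing vasculature and placenta.

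In GENCODE M21 on GRCm38, *Asb4* (ENSMUSG00000042607) lies on the plus strand of chromosome 6 from 5383386 to 5433022, over 49637 bases. *Pon2* ends 84.9 kb before it, *Pdk4* begins 50.3 kb after it, and 0 annotated genes overlap it on either strand. The longer annotated transcript has 6 exons, a spliced length of 3286 bases and a coding sequence of 426 codons, with 1978 bases after the last codon. The shorter one starts within the locus, has 4 exons and ends after 174 codons. The deposited values are per gene and do not separate these transcripts. The search for other transcripts with at least 97% identity over at least 100 bases gave 0 matches.

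**Figure D1:**
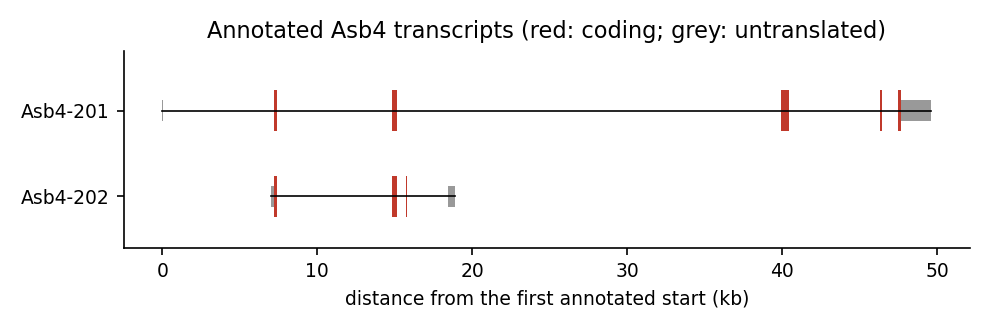
Exons of the 2 annotated *Asb4* transcripts, with the distance in kb from the first annotated start on the horizontal axis. Red blocks are coding and grey blocks untranslated, and the lower, shorter transcript lacks the last exons of the longer one, where the end of the SOCS box is encoded.

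The sequences below show the parts of the locus that bear on the name and the start of the gene. The first is the end of the coding sequence of the longer transcript, the last 50 codons before the stop at chr6:5430895-5431044, shown because the SOCS box defines the family. Capitals mark the 12 bases that encode the short proline-containing motif through which SOCS boxes contact cullin-5, found once in this stretch.
Asb4 end of coding sequence: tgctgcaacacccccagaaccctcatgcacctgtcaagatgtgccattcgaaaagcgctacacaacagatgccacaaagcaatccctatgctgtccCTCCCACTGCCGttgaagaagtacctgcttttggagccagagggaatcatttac
The next sequences are the 250 bases before each of the 2 RefSeq start sites (GRCm38.p6, plus strand), chr6:5383136-5383385 before the start at 5383386 and chr6:5390160-5390409 before the start at 5390410. Capitals mark CG pairs, and both windows are shown because the counts cannot tell which start was used.
Asb4 start 1: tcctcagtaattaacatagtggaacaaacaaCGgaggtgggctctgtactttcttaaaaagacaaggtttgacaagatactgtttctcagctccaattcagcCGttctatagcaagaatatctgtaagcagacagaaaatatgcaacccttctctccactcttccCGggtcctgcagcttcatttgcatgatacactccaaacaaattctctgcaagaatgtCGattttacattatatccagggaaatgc
Asb4 start 2: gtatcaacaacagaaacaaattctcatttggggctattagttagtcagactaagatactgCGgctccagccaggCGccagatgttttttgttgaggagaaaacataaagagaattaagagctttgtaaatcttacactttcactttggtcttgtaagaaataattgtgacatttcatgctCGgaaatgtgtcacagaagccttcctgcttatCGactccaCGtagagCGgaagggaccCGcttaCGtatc
The window before the first start holds 4 CG pairs at 40.8% GC and the window before the second holds 8 CG pairs at 41.6% GC, against medians of 6 CG pairs and 52.4% GC over 32851 windows of the same length.

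The motif TTCNNNGAA, the form bound by STAT factors, was searched on both strands from 250 bases before to 50 bases after each start. It had 0 matches in the 2 *Asb4* windows and 1 match in the 1 window of *Socs3*, while 8.30% of all 32851 windows hold it. The *Socs3* match is shown for comparison from the minus strand at chr11:117969497-117969535, with the motif in capitals, and it begins 154 bases before the start.
Socs3 match: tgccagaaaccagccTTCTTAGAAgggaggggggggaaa
The AP-1 motif TGANTCA, searched in the same way, had 0 matches in the windows of either gene, with 7.81% of all windows holding it. The absence of a match says only that these letters are not in these windows.

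*Asb4* was low in cells given PBS and higher in each library from cells given IL-22. In the PBS libraries, numbered 1 to 5, the counts were 64, 38, 44, 45 and 33 reads, or 1.79, 1.60, 1.47, 1.53 and 1.14 CPM. In the IL-22 libraries 1 to 5 the counts were 104, 101, 95, 129 and 96 reads, or 3.40, 3.77, 3.55, 4.60 and 3.48 CPM. PBS 5 was the lowest library and IL-22 4 the highest, and the groups did not overlap. The lowest IL-22 library was 1.90 times the highest PBS library, and the highest IL-22 library was 4.03 times the lowest PBS library. Absence of overlap in this direction is common in the table, where 46.5% of the 230 genes show it, and the rule that chose *Asb4* used this contrast.

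The mean was 1.51 ± 0.237 CPM with PBS and 3.76 ± 0.488 CPM with IL-22 (SD, n = 5 each), a ratio of 2.50 and a difference of 2.25 CPM. The fit to the counts (edgeR) put the log2 fold change at 1.31, with an SE of 0.18, or 2.48-fold with a range of 2.19 to 2.82 for 1 SE on either side. As the gene was chosen for this difference, its size is a description. In bulk RNA, more *Asb4* in each cell and a larger share of cells with *Asb4* cannot be told apart.

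**Figure D2:**
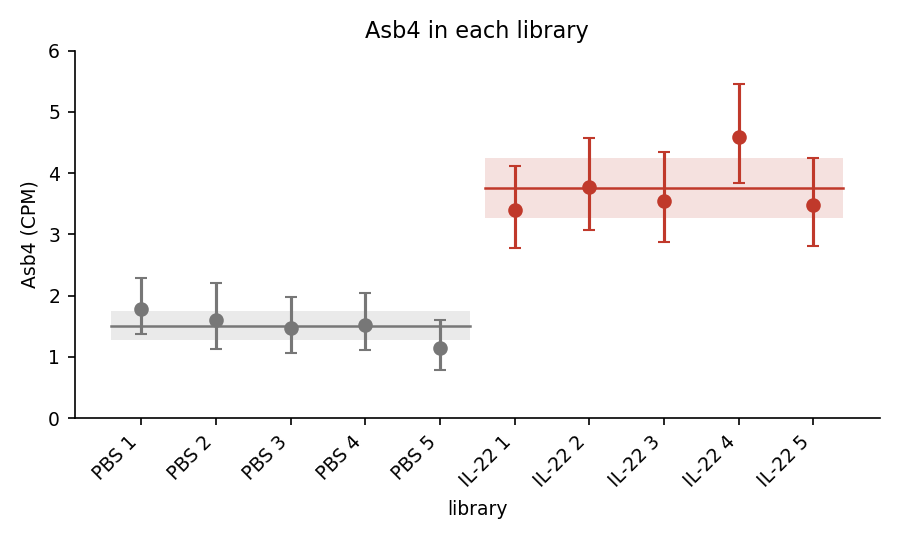
*Asb4* level in CPM on the vertical axis for each of the 10 libraries, with PBS in grey and IL-22 in red. Points are the deposited values, bars the 95% Poisson intervals of the counts, lines the group means and bands 1 SD on either side. The 5 IL-22 points lie between 3.40 and 4.60 CPM, above the PBS points at 1.14 to 1.79 CPM.

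The depth behind these values was 23685882 to 35785875 counted reads per library, and the 230 listed genes took 2.87 to 3.11% of them. Over each group *Asb4* had 224 reads with PBS and 525 with IL-22. The exact Poisson intervals (95%), which cover counting error only, reached at most 2.28 CPM in a PBS library and went down to at least 2.78 CPM in an IL-22 library, so no interval of one group met one of the other. Within the PBS group the CV between libraries was 15.8%, where counting alone would give 14.9%. Within the IL-22 group it was 13.0% against 9.76%, the larger excess, and IL-22 4 is the library that stands highest there.

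The PBS 1 library was the deepest and had the highest *Asb4* level of its group. IL-22 1 was the deepest of its own group and had the lowest *Asb4* level there. Leaving out any 1 library gave log2 fold changes from 1.23 to 1.39, the lowest without PBS 5 or without IL-22 4 and the highest without PBS 1.

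Base composition also differed between the libraries. The slope of log2 CPM on transcript GC content within each library, taken over the other 229 listed genes and called the GC index here, ran from -0.0663 to -0.0425 with PBS and from -0.0456 to -0.0405 with IL-22. *Asb4* has a GC content of 44.2%, below the median of 56.8% over the listed genes, and 34 listed genes are lower. Within the PBS group its level fell as the GC index rose through the 5 libraries, and within the IL-22 group it rose with the index through the 5 libraries. Of the PBS libraries only PBS 5, at -0.0425, had an index inside the IL-22 range, so the groups share little of the index. With the GC index as a covariate the log2 fold change was 1.55 with an SE of 0.27. That fit uses a common slope, although *Asb4* followed the index in opposite directions within the groups, so its estimate cannot separate the index from the treatment. The listed genes that set this index were themselves selected on the contrast, and its part in the *Asb4* difference was not tested.

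The scale sets how large the change looks for a gene this low. On log2(CPM + 1) the difference was 0.93 and on log2(CPM + 5) it was 0.43, because the added constants are of the order of the *Asb4* level or above it. When normalization factors were estimated from the listed genes the difference was 1.10 (TMM) or 1.11 (DESeq2), because those factors move the median log2 fold change of the listed genes by -0.21 or -0.20. They leave a median of 0.0025 (TMM) or 0.013 (DESeq2) in genes selected on the contrast, of which 81.3% were called higher without them. A rise near the median of the listed genes is thus removed by construction under these factors. *Asb4* ranked 4 of the 230 under these factors too.

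**Figure D3:**
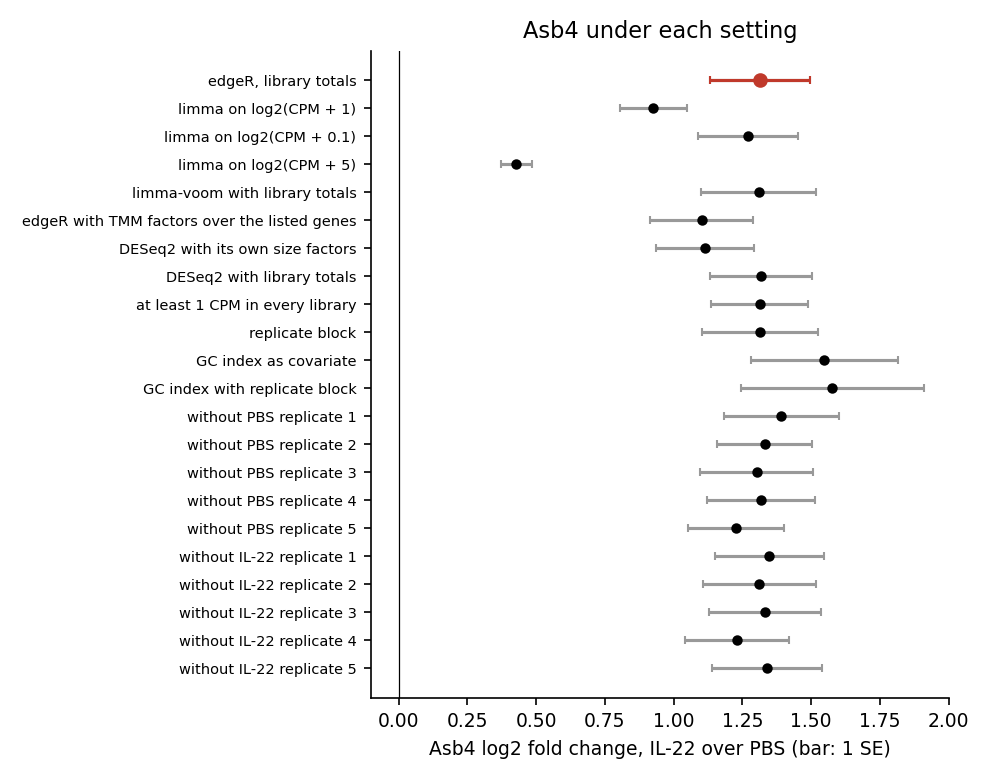
*Asb4* log2 fold change (IL-22 against PBS) on the horizontal axis under each way of computing it, with bars of 1 SE. All values lie above 0, from 0.43 on log2(CPM + 5) to 1.58 with the GC index and the replicate block, and the values without any 1 library lie between 1.23 and 1.39.

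Among the 230 listed genes *Asb4* ranked 4 by log2 fold change and 9 from the lowest by mean level. Its rank by change was 8 without PBS 5 and 11 on log2(CPM + 5). The median listed gene had 57.6 CPM and a log2 fold change of 0.21. A log2 fold change above 1 was found for 10 listed genes and one below -1 for 0. *Slc5a1*, the sodium-glucose cotransporter SGLT1, came just above *Asb4* at 1.55 (SE 0.37), and *Muc1*, a transmembrane mucin of epithelial cells, just below at 1.24 (SE 0.15). The SEs of these neighbours span *Asb4* at 1.31, so the order within this group is not resolved. By the ratio of the lowest IL-22 library to the highest PBS library *Asb4* came first of the 230, at 1.90, and *Muc1* was at 1.79.

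Low level and large change went together in the table. All listed genes had passed the authors' FDR on this contrast, and such a filter favours large changes among genes with few reads. At FDR 0.05 edgeR called 197 of the 230 genes higher with IL-22 and 33 lower. Of the 21 genes with a mean under 10 CPM, the 20 besides *Asb4* were all higher with IL-22. Their log2 fold changes started at 0.44 and had a median of 0.95, and 3 of them exceeded *Asb4*. *Slc5a1* shows the limit of such counts, with 3 to 38 reads per library, whereas *Asb4* had 33 to 129. The dispersion fitted to *Asb4* was 0.0117 against a median of 0.0033 over the listed genes, and 26 genes had a higher one.

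**Figure D4:**
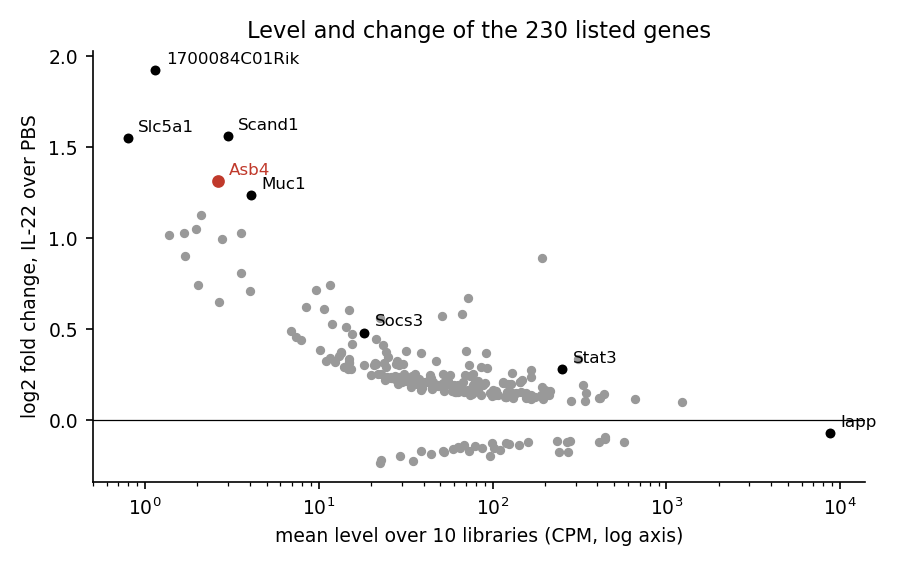
Mean level over the 10 libraries in CPM on a log axis, against the log2 fold change with IL-22, for the 230 listed genes. *Asb4*, in red, has one of the largest changes at 1.31 and one of the lowest levels, and the genes with changes under 0 lie at higher levels.

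Other members of the SOCS-box superfamily were looked for by name. Of the 34 members besides *Asb4* in the list, only *Socs3* was among the 230 genes, and the other members were not analysed here. *Socs3*, which inhibits JAK kinases bound to gp130-type and related receptors, had 15.6, 12.8, 16.0, 15.9 and 15.6 CPM in PBS 1 to 5 and 21.8, 20.7, 20.1, 22.3 and 21.7 CPM in IL-22 1 to 5. Its groups did not overlap, and PBS 2 stood below its group. On the log2 scale *Socs3* rose by 0.48 (SE 0.073), beside a median of 0.21 over all listed genes, and its adjusted p was 0.00013 in edgeR's quasi-likelihood test after Benjamini-Hochberg adjustment over the 230 genes. Its log2 fold change was 0.28 with TMM factors and 0.29 with DESeq2's own size factors, still past the threshold, and 0.41 with the GC index and the replicate block together, where it no longer passed.

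At that threshold, FDR 0.01, 94.8% of the 230 genes were called, 81.3% as higher and 13.5% as lower with IL-22, so a call is the usual state in a table selected on the same contrast. With TMM factors the same threshold called 18 genes higher and 33 lower, in place of 187 and 31, and with DESeq2's own size factors 30 higher and 33 lower. With the GC index as a covariate it called 26 higher and 0 lower. Whether *Asb4* changed more than *Socs3* was not tested, as *Asb4* was chosen for its change.

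Per kilobase of transcript, *Asb4* had 0.458 ± 0.072 CPM with PBS and 1.14 ± 0.149 CPM with IL-22 (SD, n = 5). *Socs3* had 5.96 ± 0.523 CPM per kilobase with PBS and 8.34 ± 0.347 with IL-22. On this scale per length the *Asb4* level with IL-22 lay below the *Socs3* level with PBS.

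The genes that work with a SOCS-box adaptor were absent from the table. Of 20 genes for the cullin-5 core and its regulators, 0 were listed, and of the 4 reported partners of ASB4 (*Irs4*, *Id2*, *Gps1* and *Hif1an*) 0 were listed. Of 19 genes of the imprinted domain on proximal chromosome 6, the wider neighbourhood of *Asb4*, 0 were listed. These genes were not analysed here, and their absence from the table gives no level for them.

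Among substrates and receptors of insulin and IGF signalling, the pathway that the IRS4 link concerns, 1 of 21 genes was listed. *Irs2*, an insulin receptor substrate of beta-cells, had 39.0 ± 2.08 CPM with PBS and 45.1 ± 1.35 CPM with IL-22 (SD, n = 5). It rose by 0.21 on the log2 scale (SE 0.048, adjusted p = 0.0021, edgeR), the same as the median of the listed genes. With TMM factors, DESeq2's size factors or the GC index *Irs2* no longer passed.

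Other ubiquitin ligase genes recognised by symbol numbered 4 in the table, with a median log2 fold change of 0.23. Of them 3 rose and 1 fell, where 81.3% of the 230 genes were called higher and 13.5% lower. *Rnf126*, a RING-type ligase, rose from 41.8 ± 4.93 to 52.4 ± 2.27 CPM (log2 fold change 0.33, SE 0.071), with no overlap of the groups. *Fbxl15* and *Fbxl16*, F-box proteins with leucine-rich repeats, rose by 0.34 (SE 0.11) and 0.14 (SE 0.042), with groups that overlapped. *Fbxl15* no longer passed with the replicate block (0.35, SE 0.12) or when any 1 of 7 libraries was left out, and *Fbxl16* when any 1 of 6 was left out. *Fbxo3*, another F-box protein, fell by 0.16 (SE 0.035) on the log2 scale, from 117 ± 2.66 to 104 ± 3.83 CPM. The changes of the 4 genes thus ran from -0.16 to 0.34 (edgeR), and the calls of the rising members depend on scaling. With the GC index no call of the 4 was kept. *Rnf126* was then at 0.12, *Fbxl15* at 0.091, *Fbxl16* at 0.0068 and *Fbxo3* at -0.13. With TMM factors or DESeq2's own size factors only *Fbxo3* of the 4 passed, at -0.37 or -0.36, and the estimate for *Fbxl16* was then -0.064 or -0.054. Ankyrin repeat genes recognised by symbol numbered 1 besides *Asb4*. *Anks1b* rose from 11.9 ± 0.607 to 16.9 ± 1.27 CPM (log2 fold change 0.51, SE 0.077, adjusted p = 0.00013, edgeR), and was at 0.30 with TMM factors, still past the threshold.

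Of 23 genes of the IL-22 receptor and the JAK-STAT pathway, 2 were listed. Both rose, with a median log2 fold change of 0.33, in a table where 81.3% of the 230 genes were called higher. *Stat3*, the main transcription factor of IL-22 signalling, had 223 to 234 CPM in the PBS libraries and 265 to 294 CPM in the IL-22 libraries, and rose by 0.28 (SE 0.032, adjusted p = 1.3e-05, edgeR). *Jak3*, a kinase of common gamma chain receptors, rose from 27.6 ± 1.88 to 35.8 ± 2.79 CPM, by 0.38 (SE 0.065, adjusted p = 0.00037, edgeR). IL-22 4, the library with the most *Asb4*, also had the most *Stat3* (294 CPM) and the most *Jak3* (40.7 CPM). With TMM factors *Stat3* was at 0.073 and *Jak3* at 0.17, and with those factors or DESeq2's size factors neither gene passed. With the GC index *Jak3* no longer passed, at 0.31.

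The cells carried beta-cell genes, as the label of the line states. Of 20 beta-cell markers 7 were listed, with a median log2 fold change of 0.17, and *Iapp*, the islet amyloid peptide, was the most abundant at 8072 to 9121 CPM per library. *Mafa*, *Nkx2-2*, *Nkx6-1*, *Pcsk1n* and *Pdx1* rose, *Slc2a2* fell, and *Iapp* had a log2 fold change of -0.07 that did not pass (adjusted p = 0.023, edgeR). *Iapp* passed with the replicate block (-0.070, SE 0.017), with TMM or DESeq2's size factors (-0.28 and -0.27), and without IL-22 1 (-0.085). With TMM factors the estimates for *Nkx2-2*, *Pdx1* and *Nkx6-1* were -0.034, -0.041 and 0.055, and none of these 3 passed. With the GC index *Nkx2-2* (0.034), *Pdx1* (0.062) and *Nkx6-1* (0.081) no longer passed. *Slc2a2* no longer passed either, at -0.14 (SE 0.059) in place of -0.17 (SE 0.044). *Pcsk1n* was at 0.27 in place of 0.89 and *Mafa* at 0.22 in place of 0.58 with that index. Leaving out 1 library ended the call of *Nkx2-2* for 6 libraries and that of *Nkx6-1* for 3. Of 37 markers of other islet cells, of exocrine and duct cells, and of immune, endothelial and stromal cells, 0 were listed, so their levels could not be set beside *Asb4*.

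The genes most like *Asb4* across all 10 libraries were found by Pearson's r of log2 CPM, as a description over libraries that share the contrast. *Muc1* came first at r = 0.98, and *Serping1*, *Rgs4* and *Stat3* each had r = 0.95, where the median gene of the table had 0.70. *Muc1* had 2.77, 2.83, 2.13, 2.44 and 1.87 CPM in PBS 1 to 5 and 5.07, 5.27, 5.42, 6.17 and 6.45 CPM in IL-22 1 to 5. PBS 5 was the lowest library for *Muc1*, as it was for *Asb4*, and the groups did not overlap. By Spearman's rho 1 of the first 5 genes stayed among the first 5, so the set depends on the measure.

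After each group's mean was removed, *Serping1*, the complement C1 inhibitor, came first with r = 0.85 over the 10 libraries, followed by *Slc5a1* (0.78), *Lamtor4* (0.77), *Muc1* (0.76) and *Cxx1a* (0.72). By Spearman's rho the same 5 genes came first. The median gene had r = -0.36. All values of a library share its depth and its base composition, and the part of these in the r values was not tested. *Serping1* had 20.2, 19.3, 19.2, 17.8 and 17.7 CPM in PBS 1 to 5 and 22.6, 23.6, 22.3, 26.5 and 22.1 CPM in IL-22 1 to 5. Its highest library was IL-22 4 and its lowest PBS 5, as for *Asb4*, and its log2 fold change was 0.31 (SE 0.069). With TMM or DESeq2's size factors it was 0.10 or 0.11 and no longer passed.

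**Figure D5:**
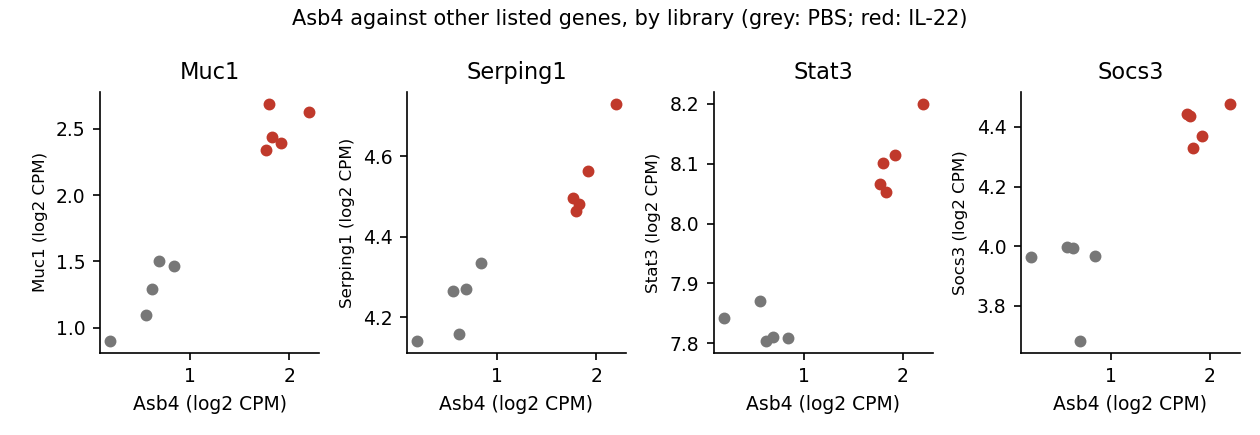
Log2 CPM of *Muc1*, *Serping1*, *Stat3* and *Socs3* on the vertical axes against log2 CPM of *Asb4* on the horizontal axes, with 1 point per library, PBS in grey and IL-22 in red. In each panel the IL-22 points lie above and to the right of the PBS points, and IL-22 4 is the point with the most *Asb4*.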

How the data were processed

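Total RNA from MIN6N8 cells was made into stranded mRNA libraries by the study's authors and sequenced. The table the authors deposited lists 230 genes, with raw counts of reads per gene, not normalized, and CPM, which is the count over the library total. The deposited CPM equalled count over total within 0.00051 CPM in 99.1% of 2300 values. The submitters' processing notes name mm10, and the aligner and counter are not given in the sources used here. The 5 remaining columns, of the authors' comparison (fold changes, mean expression, p-values, FDR), were not used, except to check that each FDR was below 0.05.

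Groups came from the labels. The quasi-likelihood test of edgeR 4.0.16 (R 4.3.3) used library totals recovered from the table, no normalization factors, and Benjamini-Hochberg adjustment over 230 genes at FDR 0.01. It was tested on simulated data. Dispersions came from listed genes only, which were selected on the same contrast. Alternatives were limma 3.58.1 on log2(CPM + 0.1, 1 or 5) and voom, TMM, DESeq2 1.42.0, filters at 1 and 10 CPM, the replicate block, a GC index, FDR 0.05, adjustment over 20000 genes, and leaving out each library. *Asb4* and the gene lists were chosen with earlier results of these data known. Named genes are *Asb4*, list members in the table, the 5 genes with the highest r to *Asb4* (with and without group means) and its neighbours in rank, and 1 of these is not reported here. Coordinates are GENCODE M21 on GRCm38 (220 genes matched by symbol, 10 by an older one), promoter sequences RefSeq on GRCm38.p6. Further tools were blastn 2.17.0, Python 3.11.15, scipy 1.17.1 and matplotlib 3.10.9.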

Additional observations from a re-analysis of the deposited data

Results flagged for a closer look

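Within single groups of 5 libraries, 5 of 48 groups examined held a library far from the other 4 (a gap to the nearest library over the group's range above Dixon's critical value), where chance gives about 1 in 20, or 2.4 here. *Socs3* in PBS 2 was at 12.8 CPM, with the other PBS libraries at 15.6 to 16.0 CPM. *Fbxo3* in PBS 2 was at 122 CPM against 115 to 117 CPM, and in IL-22 4 at 97.8 CPM against 104 to 107 CPM. *Jak3* in PBS 1 was at 24.4 CPM against 27.9 to 29.2 CPM, and in IL-22 4 at 40.7 CPM against 33.7 to 35.3 CPM. For *Asb4* the gap was 0.505 of the range for PBS 5 and 0.691 for IL-22 4, both under the critical value of 0.71.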

How the results depend on the processing

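The *Asb4* log2 fold change stayed positive under each alternative run, and 17 of 21 values lay within 1 SD between libraries of 1.31. The others were 0.93 on log2(CPM + 1), 0.43 on log2(CPM + 5), 1.55 with the GC index and 1.58 with the GC index and the replicate block. Without 1 library it ranged from 1.23 to 1.39. A filter of 10 CPM in every library removes *Asb4*. With the replicate block it was 1.31 and 225 listed genes were called, 193 higher and 32 lower. Deviations of same-numbered libraries correlated between -0.316 and 0.322. These values were not set against libraries with unlike numbers, so whether the numbers pair the libraries cannot be told from them.

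In place of 218 listed genes, 51 were called with TMM, 63 with DESeq2's size factors, 26 with the GC index, 24 with the index and block, and 7 with adjustment over 20000 genes. Without 1 library the count ranged from 145 (without PBS 1) to 228. Among the SOCS-box genes, *Socs3* kept its call with the filter of 10 CPM and lost it with the index and block or over 20000 genes. No call is given for *Asb4*, which was chosen on this contrast. The 4 other ubiquitin ligases became 3 with the block, 1 with TMM or DESeq2, 0 with the index, with or without the block (1 at an unadjusted p below 0.05), and 0 over 20000 genes (4 unadjusted), and 2 to 4 without 1 library (2 without PBS 1, PBS 2, IL-22 2, IL-22 4 or IL-22 5). The 2 JAK-STAT genes became 0 with TMM (1 unadjusted) or DESeq2 (2 unadjusted) and 1 with the index, with or without the block, or over 20000 genes. *Irs2* gave 0 calls under these 5 settings (unadjusted 1 over 20000 genes, otherwise 0), and *Anks1b* 0 over 20000 genes (1 unadjusted). Estimates changed sign for *Fbxl15* (-0.018, index and block), *Fbxl16* (-0.064 TMM, -0.054 DESeq2), *Nkx2-2* (-0.034 and -0.024) and *Pdx1* (-0.041 and -0.030). The cause of these shifts was not tested beyond the alternatives. Lists with no listed member gave no value. *Asb4* had 33 to 129 reads per library.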
